A study of Mus musculus with 6 samples.

Results

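The hypoxia response genes described here are 9 genes of the cellular answer to low oxygen: Hif1a, Epas1, Egln3, Ankrd37, Bnip3, Pdk1, Ndrg1, Adm and Car9. They were taken as every probe set with one of these symbols as its only gene symbol, which gave 22 of the 45037 probe sets tested. A probe set is a group of short array probes that report on 1 transcript or a few. RNA came from the cochlear lateral wall of CBA/CaJ mice, the strip of the inner ear made up of stria vascularis and spiral ligament. The young group was 3 samples from young adults of 1 to 3 months, and the old group was 3 samples from mice of 1.5 years. Mice of both sexes were used, the labels name no treatment or genetic change, and they do not say whether a sample was 1 animal or a pool. The p-values therefore measure the spread between these samples, which may be partly technical.

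Cells sense oxygen through the hypoxia-inducible factors (HIF). When oxygen is present, prolyl hydroxylases mark the HIF alpha subunits for destruction, and when it is scarce the subunits persist, pair with Arnt and switch on genes for glycolysis, mitophagy, blood vessel tone and pH control. HIF protein is thus set mainly by its breakdown, which RNA arrays do not measure, while the RNA of HIF targets is read directly. The stria vascularis is densely supplied with capillaries and carries a heavy load of ion pumping.

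Short core sequences bound by HIF, ACGTG and GCGTG, were looked for in the 250 bases before the start site of each member. RefSeq promoter entries (GRCm38.p6) were matched for 7 of the 9 genes, in 8 windows, and Epas1 and Ndrg1 were not matched. The windows of the 3 members with a probe set past the test, and that of Bnip3, which had the most matches, are printed for comparison. Capitals mark a core sequence on either strand, and each sequence reads 5′ to 3′ along the gene.
Ankrd37, chr8:45999851-46000100, minus strand: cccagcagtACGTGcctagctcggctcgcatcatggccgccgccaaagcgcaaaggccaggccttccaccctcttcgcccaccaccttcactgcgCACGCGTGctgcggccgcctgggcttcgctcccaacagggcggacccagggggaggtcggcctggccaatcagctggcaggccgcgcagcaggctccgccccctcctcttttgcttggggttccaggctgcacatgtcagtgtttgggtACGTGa
Egln3, chr12:54203875-54204124, minus strand: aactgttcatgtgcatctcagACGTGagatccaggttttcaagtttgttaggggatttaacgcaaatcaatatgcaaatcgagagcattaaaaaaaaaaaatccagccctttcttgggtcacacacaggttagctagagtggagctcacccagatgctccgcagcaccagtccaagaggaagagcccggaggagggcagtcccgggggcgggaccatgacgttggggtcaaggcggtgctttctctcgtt
Pdk1, first of 2 start sites, chr2:71872974-71873223, plus strand: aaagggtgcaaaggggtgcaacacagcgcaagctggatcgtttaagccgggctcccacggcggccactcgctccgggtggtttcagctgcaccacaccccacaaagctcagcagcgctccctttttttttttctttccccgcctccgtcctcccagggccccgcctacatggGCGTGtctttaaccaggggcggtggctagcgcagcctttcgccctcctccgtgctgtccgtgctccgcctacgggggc
Bnip3, chr7:138909507-138909756, minus strand: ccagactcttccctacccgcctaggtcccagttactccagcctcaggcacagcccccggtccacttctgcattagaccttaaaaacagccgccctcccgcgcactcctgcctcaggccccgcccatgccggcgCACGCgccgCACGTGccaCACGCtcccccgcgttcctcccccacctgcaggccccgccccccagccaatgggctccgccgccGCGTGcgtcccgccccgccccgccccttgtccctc
The Ankrd37 window held 2 matches to ACGTG and 2 to GCGTG, 1 of them ending 2 bases before the start site. Egln3 had 1 match to ACGTG and the first Pdk1 window 1 match to GCGTG, while the window of the second Pdk1 start site had 0 of either. Bnip3 held 2 matches to ACGTG and 3 to GCGTG, counted on both strands, so that the palindrome CACGTG counts on each. Of the others, Hif1a had 3 matches and Car9 1 to ACGTG, and Adm had 2 to GCGTG. Over all 32851 promoter windows of this length, 16.6% held ACGTG, 28.2% held GCGTG and 38.6% held either. A match is a string of letters and shows no binding.

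Of the 22 probe sets, 3 rose with age and 0 fell, in a limma fit across all probe sets at a Benjamini-Hochberg adjusted p under 0.05. The 3 were the one probe set of Ankrd37, 1 of 2 for Egln3 and 1 of 4 for Pdk1, with differences of 0.67, 0.48 and 0.74 on the log2 scale. The other 6 genes had no probe set past the threshold: Hif1a and Epas1, which encode the HIF alpha subunits, and Bnip3, Ndrg1, Adm and Car9. Over all probe sets, 4.71% passed the same test, 1.86% higher and 2.84% lower in old tissue. At an unadjusted p under 0.05, 5 of the 22 were higher and 0 lower. The share of all probe sets at this unadjusted threshold was not counted, here or for the lists below. In the same limma fit an unadjusted p of 0.0474 had an adjusted p of 0.253, so such values were common over all probe sets. The unadjusted counts are therefore not read as an excess. With 1 probe set per gene, the brightest over all arrays, Ankrd37 was the 1 of 9 that passed, against 4.86% of 18193 genes when adjusted over genes and 4.78% when adjusted over all probe sets. The median difference over the 22 was 0.03 and over all probe sets 0.01. With 1 array left out, the count stayed at 3 only without young replicate 2. It fell to 2 without young replicate 1 or old replicate 1. The count was 1 when young replicate 3 or old replicate 2 was left out, and 0 when old replicate 3 was. The genes were proposed for study with results of these arrays known, so the count is not an independent test of the group.

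All differences below are old minus young log2 signals, where 1 means a doubling, given ± the standard error from limma. Means are ± SD with n = 3 arrays. Signals of different probe sets depend on their probes and cannot be set against each other. Whether fewer cells of a type or less RNA per cell lies behind a difference cannot be told apart in whole tissue.

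**Figure D1:**
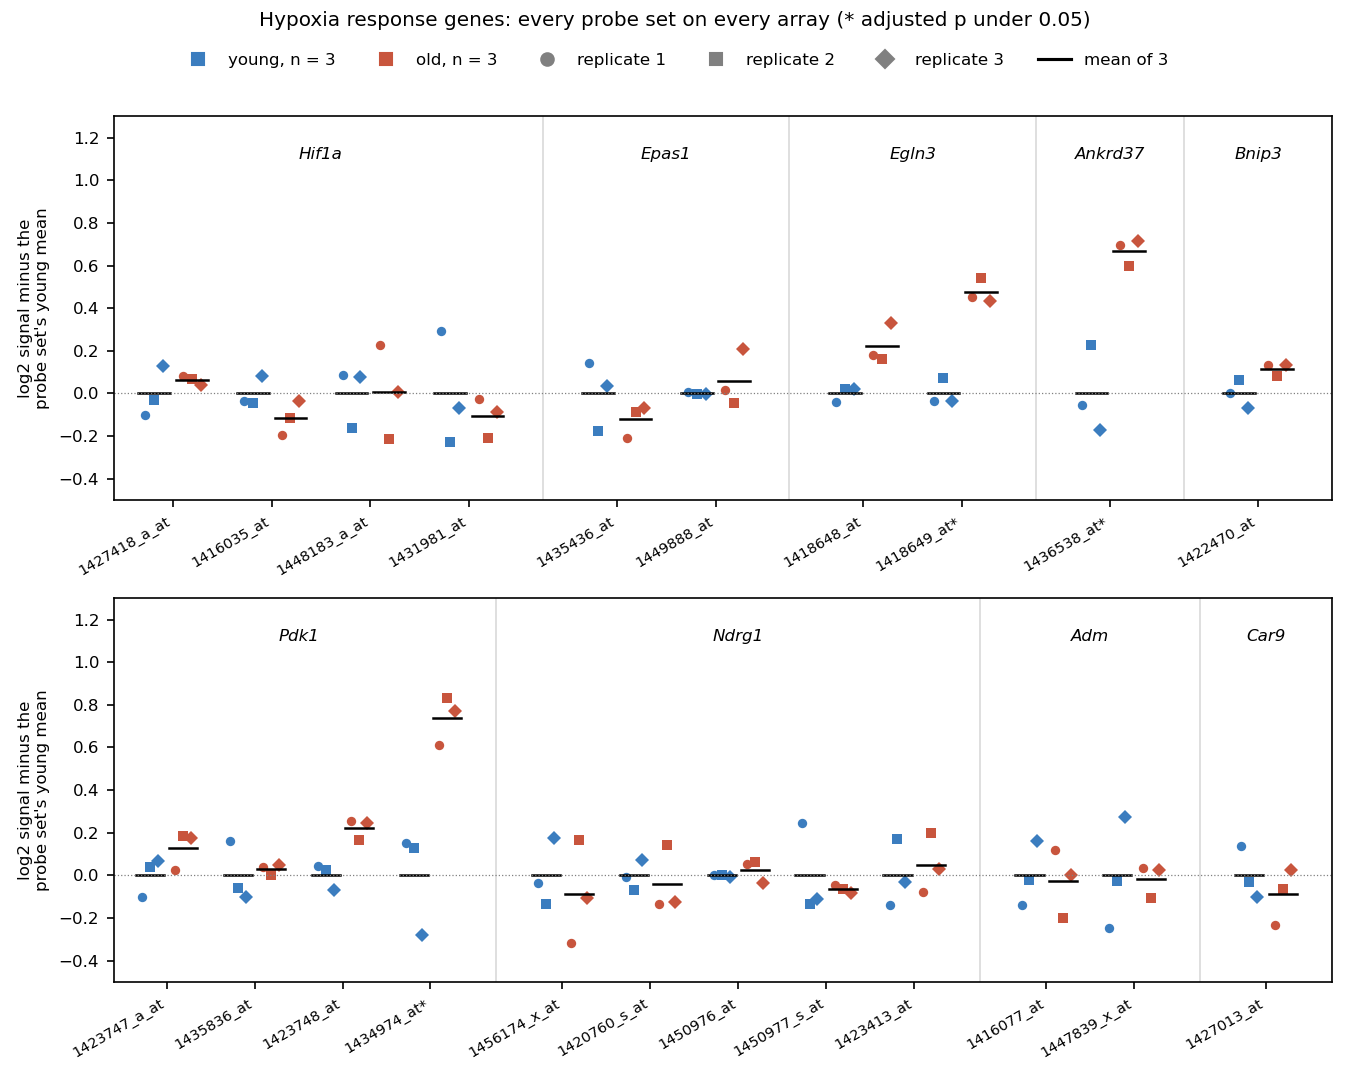
The vertical axis is the log2 signal of each array minus the young mean of its probe set, for the 22 probe sets grouped by gene; colours are the ages, marker shapes the replicates and bars the means of 3. An asterisk marks an adjusted p under 0.05. The old points of Ankrd37 1436538_at, Egln3 1418649_at and Pdk1 1434974_at lie clear above the young ones, while those of Hif1a, Epas1, Ndrg1, Adm and Car9 overlap the young.

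No probe set of the HIF alpha subunits passed the test. Hif1a encodes HIF-1 alpha, the subunit found in most cell types, and had 4 probe sets. Probe set 1427418_a_at read 12.50, 12.57 and 12.73 in young and 12.68, 12.67 and 12.64 in old tissue. The old arrays fell within the young range, and the difference was 0.06 ± 0.09 (limma adjusted p = 0.780), with a 95% interval of -0.13 to 0.26. Probe set 1416035_at read 10.71, 10.70 and 10.83 in young and 10.55, 10.63 and 10.71 in old tissue, a difference of -0.12 with an interval of -0.31 to 0.07. The groups shared the value 10.71, so they overlapped. The remaining Hif1a probe sets, with young means of 4.60 and 4.30, had differences of 0.01 and -0.11.

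Epas1 encodes HIF-2 alpha, a subunit known for its high level in endothelium. Probe set 1435436_at read 12.50, 12.18 and 12.39 in young and 12.15, 12.27 and 12.29 in old tissue. Young replicate 2 was level with the old arrays, and the difference was -0.12 ± 0.10 (limma adjusted p = 0.608, interval -0.35 to 0.11). The second probe set of Epas1 read 6.54 to 6.55 in young and 6.5 to 6.75 in old tissue, a difference of 0.06. All 10 endothelial markers were measured and 0 passed in limma, with 2 higher and 0 lower at an unadjusted p under 0.05. Their summed signal, on the log2 scale, ran from 12.28 to 12.49 on young arrays and from 12.22 to 12.39 on old ones. The brightest marker, Emcn, weighs most in this sum, with means of 11.06 in young and 10.85 in old tissue (named after its values were seen).

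Egln3 encodes PHD3, a prolyl hydroxylase that acts on HIF alpha and is itself a HIF target. Probe set 1418649_at read 6.77, 6.88 and 6.77 in young and 7.26, 7.35 and 7.24 in old tissue. Every old array was above every young array, and the signal rose by 0.48 ± 0.08, or 1.39-fold (limma adjusted p = 0.0157). The other probe set, 1418648_at, read 7.58, 7.64 and 7.64 in young and 7.80, 7.78 and 7.95 in old tissue. These groups did not overlap either, but the difference of 0.22 ± 0.08 did not pass (limma adjusted p = 0.172), and it was this brighter probe set that stood for Egln3 in the count by gene. Averaged over both probe sets, the difference was 0.35 ± 0.06 (limma adjusted p = 0.0193). Within arrays, the signal of 1418649_at relative to the other was 0.25 higher in old tissue, with an exact 2-sided permutation p of 0.1, the smallest that 3 against 3 can give. The call on 1418649_at was lost on leaving out young replicate 3, old replicate 2 or old replicate 3, with limma adjusted p of 0.0680, 0.0573 and 0.0687.

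Ankrd37 encodes an ankyrin repeat protein and is induced by hypoxia through HIF-1. Its probe set 1436538_at read 5.87, 6.15 and 5.75 in young and 6.62, 6.52 and 6.64 in old tissue. The highest young array, replicate 2, was 6.15 and the lowest old array 6.52, so the groups did not overlap. The signal rose by 0.67 ± 0.11, or 1.59-fold (limma adjusted p = 0.0156). The old arrays were the tighter group, with an SD of 0.06 against 0.21 in young. Dropping young replicate 1 or 3 gave limma adjusted p of 0.0518 and 0.0632, and dropping old replicate 1 or 3 gave 0.0537 and 0.0769, so the call rested on each of these. It was 0.00447 without young replicate 2. The mean signal of this probe set lay just under the median of all probe sets, 6.28, and no detection calls were used here.

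For the pattern of Ankrd37 across the 6 arrays, the genes most alike by Pearson correlation were Wdyhv1, Tmem126a and Plp2, at r of 0.998, 0.998 and 0.997. Such a correlation rests largely on the shared split between the ages. Their differences were 0.40, 0.15 and 0.26, and Wdyhv1 alone of the 3 passed (limma adjusted p = 0.0357, against 0.325 and 0.103).

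Pdk1 encodes pyruvate dehydrogenase kinase 1, which limits the use of pyruvate in the mitochondria by shutting down pyruvate dehydrogenase. Its 4 probe sets disagreed. Probe set 1434974_at read 7.50, 7.48 and 7.07 in young and 7.96, 8.18 and 8.12 in old tissue. Young replicate 3 was the lowest array, the groups did not overlap, and the signal rose by 0.74 ± 0.13, or 1.67-fold (limma adjusted p = 0.0182). Probe set 1423748_at read 10.24, 10.22 and 10.13 in young and 10.45, 10.36 and 10.44 in old tissue. Its groups were also apart, but the difference of 0.22 ± 0.08 did not pass (limma adjusted p = 0.158). The probe sets 1423747_a_at and 1435836_at, with young means of 11.42 and 11.40, had differences of 0.13 and 0.03, and their groups overlapped. Their 95% intervals, -0.07 to 0.33 and -0.18 to 0.24, did not reach the lower bound of 0.45 for 1434974_at. Relative to the mean of the other 3, 1434974_at was 0.61 higher in old tissue, from -3.66 ± 0.21 to -3.05 ± 0.11 (exact 2-sided permutation p = 0.1, the smallest that 3 against 3 can give). Averaged over the 4, the difference was 0.28 ± 0.07 and did not pass (limma adjusted p = 0.0581). The call on 1434974_at was lost on dropping old replicate 2 or 3 (limma adjusted p = 0.0560 and 0.0827). Which transcript end each probe set reads was not examined, and probe sequences were not used here. The same-gene contrasts of Pdk1 and Egln3 were chosen after their values were seen. In each, the called probe set was set against the others. It had been picked by its age difference on these same arrays, so the permutation p is no independent test.

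Bnip3 encodes a mitochondrial outer membrane protein that triggers mitophagy in hypoxia. Its probe set read 11.04, 11.10 and 10.97 in young and 11.17, 11.12 and 11.17 in old tissue. The groups lay side by side without overlap, and the difference of 0.12 ± 0.08 did not pass (limma adjusted p = 0.481, interval -0.06 to 0.29).

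The remaining members had overlapping groups on every probe set. Ndrg1, whose product is a stress-responsive protein needed for the upkeep of peripheral myelin, had 5 probe sets with differences from -0.09 to 0.05. Probe set 1420760_s_at read 9.75, 9.69 and 9.83 in young and 9.62, 9.90 and 9.63 in old tissue (limma adjusted p = 0.892, interval -0.26 to 0.18). Old replicate 2 was the highest array and the other old arrays were the lowest. Probe set 1456174_x_at read 9.65, 10.13 and 9.86 in old tissue, with old replicate 2 again highest among the old. Of 4 measured Schwann cell markers, 0 rose and 1, Pmp22, fell by 0.51 (limma adjusted p = 0.0265; named after its values were seen), and its part in the Ndrg1 values was not tested. The suffixes _s_at and _x_at mark probes that may also bind other transcripts.

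Adm encodes adrenomedullin, a peptide that widens blood vessels. Probe set 1416077_at read 10.37, 10.49 and 10.67 in young and 10.63, 10.31 and 10.51 in old tissue. The old arrays were spread across the young range, and the difference was -0.03 ± 0.11 (limma adjusted p = 0.939, interval -0.28 to 0.23). The second probe set, 1447839_x_at, differed by -0.02 (limma adjusted p = 0.968). Car9, a carbonic anhydrase of the cell surface that is switched on in hypoxic cells, read 5.53, 5.36 and 5.29 in young and 5.16, 5.33 and 5.42 in old tissue. Its difference was -0.09 ± 0.10 (limma adjusted p = 0.724, interval -0.32 to 0.14), and its signal lay under the median of all probe sets on every array.

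**Figure D2:**
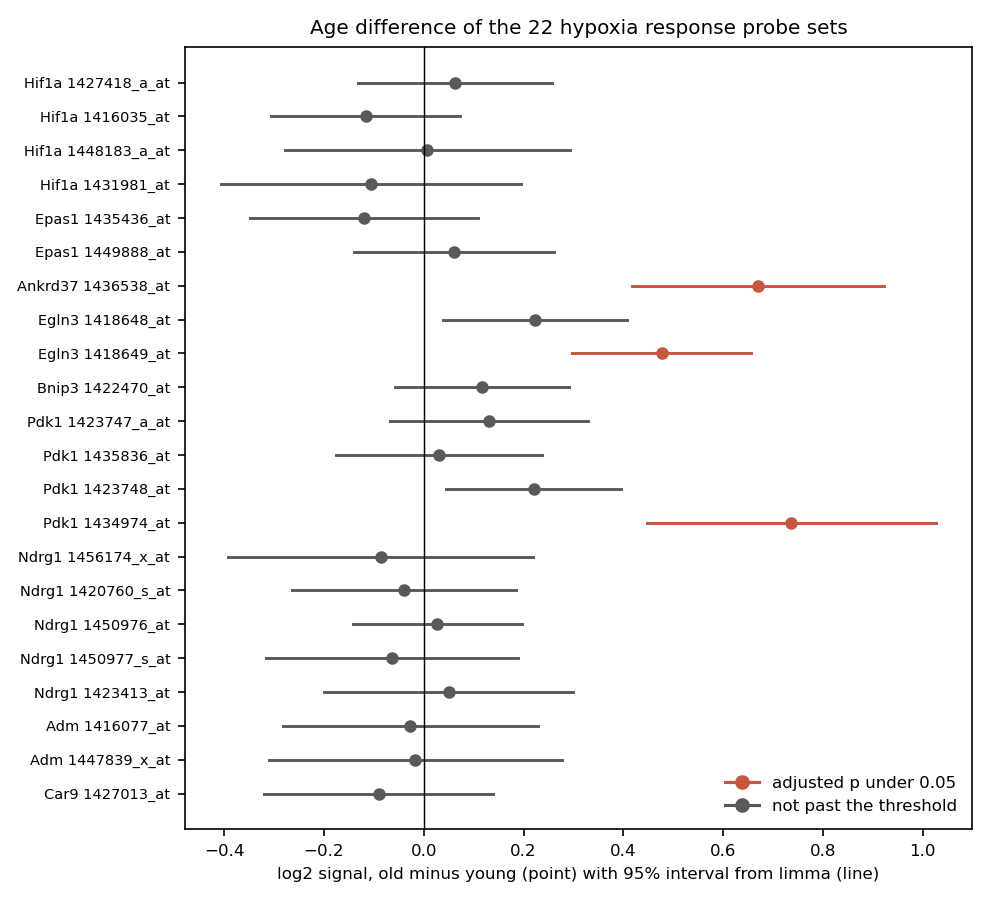
Points are the old minus young differences in log2 signal of the 22 probe sets and lines their 95% intervals from limma; red marks an adjusted p under 0.05. The 3 red intervals start at 0.42, 0.30 and 0.45 for Ankrd37, Egln3 and Pdk1, and the second Egln3 probe set and Pdk1 1423748_at also lie above 0 without passing the adjusted threshold.

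Groups that did not overlap were found for 6 of the 22 probe sets, all higher in old tissue: those of Ankrd37 and Bnip3, both of Egln3 and 2 of Pdk1. Over all probe sets 23.8% were apart, 12.5% with old higher and 11.3% with old lower. The 19 probe sets that did not pass had differences between -0.12 and 0.22. Of the 22, 17 had a mean above the median of all probe sets, and the other 5 were 2 of Hif1a, 1 of Ndrg1 and those of Ankrd37 and Car9.

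**Figure D3:**
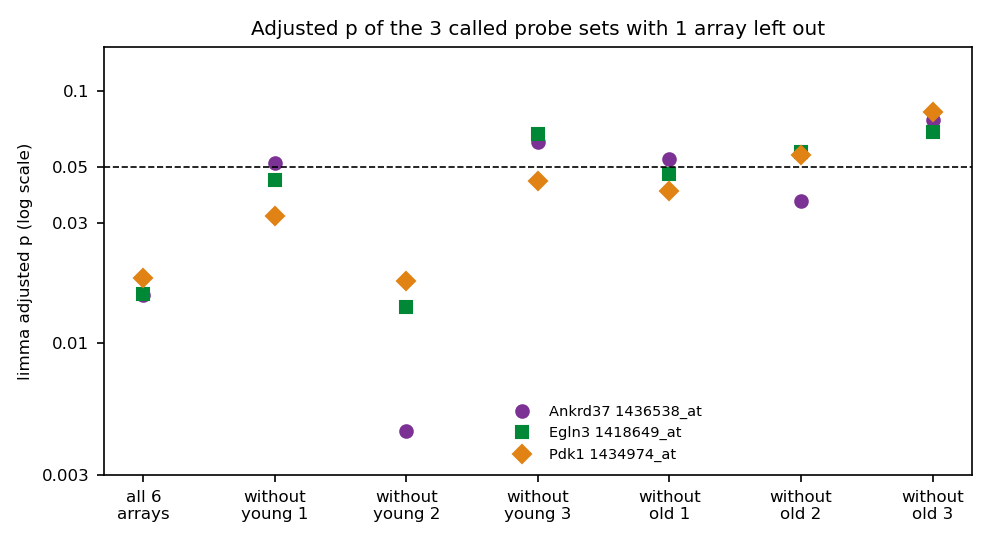
The vertical axis is the limma adjusted p on a log scale for the 3 called probe sets, with all 6 arrays and with each array left out in turn; the dashed line is 0.05. Without young replicate 2 all 3 lie under the line, and without old replicate 3 all 3 lie above it, at 0.0769, 0.0687 and 0.0827 for Ankrd37, Egln3 and Pdk1.

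The arrays differed in ways that touch these results. On the first principal component young replicate 2 lay closest to the old group, at -11.6 against -38.6 and -28.0 for the other young arrays, and its Xist signal was 6.06 where the other 5 arrays had 11.95 to 12.65. Xist is transcribed in female cells, so sex may not have been balanced between the ages. The part of sex in the differences was not tested. Young replicate 2 was the highest young array for Ankrd37 and for Egln3 1418649_at. Without it the differences were 0.78 for Ankrd37, 0.51 for Egln3 and 0.80 for Pdk1 1434974_at, each past the threshold. A larger excess of 3′ over 5′ signal in control probe sets is a sign of less intact RNA. For Gapdh this excess was 1.07 to 1.25 on young arrays and 1.26 to 1.45 on old ones. The exact 2-sided permutation p was 0.1, the smallest possible. The same measure on Actb overlapped between the ages, at 1.46 to 1.6 on young and 1.39 to 1.84 on old arrays (exact 2-sided permutation p = 0.4). The part of RNA integrity in the differences between probe sets of Egln3 and Pdk1 was not tested. Markers of the labelled tissue were also read. Their level cannot show whether bone or marrow was present too, since signals of different probe sets cannot be compared. All 14 strial and ligament markers had mean signals of at least 10.85, and 0 passed in limma, with 1 higher and 1 lower at an unadjusted p under 0.05.

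Genes around the members in the pathway were read at 1 probe set each, from lists chosen with results of these data known. The background for this reading was 2.45% of 18193 genes called higher and 2.33% called lower, with a median difference of 0.03. Of 15 HIF partners and regulators, 0 rose and 1 fell, with a median of 0.03. The one that fell was Hif3a, whose product can restrain the other HIF alpha subunits. Hif3a read 7.78, 7.45 and 7.73 in young and 7.28, 7.06 and 7.05 in old tissue. No old array reached the lowest young array, and the difference was -0.52 ± 0.11 (limma adjusted p = 0.0374). The call was lost without young replicate 1 or 3 or any old array, with limma adjusted p of up to 0.153, and with quantile normalization applied again (0.0531). Another 5 Hif3a probe sets, with differences of -0.21 to -0.04, did not pass.

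Of 18 measured HIF targets in glycolysis, 0 rose and 0 fell in limma, with 2 higher and 1 lower at an unadjusted p under 0.05. Their differences ran from -0.21 to 0.28, with a median of 0.08. Those with the smallest p were Pfkp, a phosphofructokinase, at 0.25 ± 0.09, and Slc2a1, the glucose transporter of endothelium and many other cells, at -0.21 ± 0.08 (limma adjusted p = 0.176 and 0.205). The other probe sets of Pfkp, with young means of 5.07 and 4.81, differed by -0.11 and 0.03 (limma adjusted p = 0.626 and 0.916). The other probe sets of Slc2a1 differed by -0.30 and -0.36 and did not pass either (limma adjusted p = 0.0951 and 0.0780).

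Of 25 other HIF targets, 2 rose and 3 fell, with a median of -0.03. Ak4, an adenylate kinase of the mitochondrial matrix, read 8.30, 8.48 and 8.23 in young and 9.20, 9.19 and 9.22 in old tissue. The old arrays were close to each other and stood clear of the young, with a difference of 0.87 ± 0.09 (limma adjusted p = 0.00251). The call on Ak4 held on leaving out any array, with a limma adjusted p of up to 0.0175. A second Ak4 probe set rose by 0.77 (limma adjusted p = 0.0112), and another 3, with young means of 3.66 to 5.40, did not pass.

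Cxcr4, the receptor for the chemokine Cxcl12 on leukocytes and other cells, read 5.66, 6.17 and 5.22 in young and 6.90, 6.91 and 6.88 in old tissue. The young arrays were widely spread and all lay below the old, with a difference of 1.21 ± 0.20 (limma adjusted p = 0.0157). Its call was lost without young replicate 1, old replicate 1 or old replicate 3 (limma adjusted p = 0.0545, 0.0522 and 0.0646). Of 8 macrophage markers, 2 rose and 0 fell. Their summed signal, on the log2 scale, ran from 12.17 to 12.41 on young arrays and from 12.94 to 13.08 on old ones. The brightest markers weigh most in this sum, and Lyz2 went from a mean of 10.46 in young to 12.02 in old tissue. Cd68 was the other that rose, while only Mrc1 and Csf1r had differences below 0, at -0.32 and -0.08. These genes were named after their values were seen. Array signals have no zero at which a marker could be called absent. The part of these markers in the difference of Cxcr4, or of Ankrd37, Egln3 and Pdk1, was not tested.

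Among the targets that fell, Ddit4, an inhibitor of mTORC1 signalling that glucocorticoids also induce, read 10.09, 9.85 and 10.20 in young and 8.07, 8.11 and 8.49 in old tissue. The groups were far apart, at -1.82 ± 0.14 (limma adjusted p = 0.000990). Bhlhe40, a repressor in the circadian clock, was at 10.36, 10.09 and 10.12 in young and 9.40, 9.41 and 9.71 in old tissue. Its groups did not overlap, and the difference was -0.68 ± 0.12 (limma adjusted p = 0.0168, and 0.0625, 0.0592 and 0.0528 without young replicate 3, old replicate 1 and old replicate 2). Plod1, a collagen lysyl hydroxylase, fell by 0.46 (limma adjusted p = 0.0212). That call was lost on leaving out any array except young replicate 2, with limma adjusted p of up to 0.0863, a second Plod1 probe set differed by -0.08, and Plod1 was named after its values were seen. Beside these, 13 of 18 immediate early and glucocorticoid-induced genes fell and 0 rose, including Egr3 at -3.71 and Fos at -2.81 (limma adjusted p = 0.00614 and 0.000985), though a second Egr3 probe set differed by 0.10. Their summed signal, on the log2 scale, in which the brightest genes weigh most, ran from 15.38 to 15.73 on young arrays and from 14.39 to 14.61 on old ones. Of 7 measured osteoblast and osteocyte markers, 3 fell, and 6 of 7 marrow myeloid markers fell. The summed signal of the osteoblast and osteocyte markers, on the log2 scale, was 12.46 to 12.76 on young arrays and 11.33 to 11.72 on old ones. This sum mostly followed its brightest marker, Dmp1, with means of 12.25 in young and 11.14 in old tissue (named after its values were seen). The part of these lists in the differences of Ddit4, Bhlhe40 and Plod1 was not tested.

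**Figure D4:**
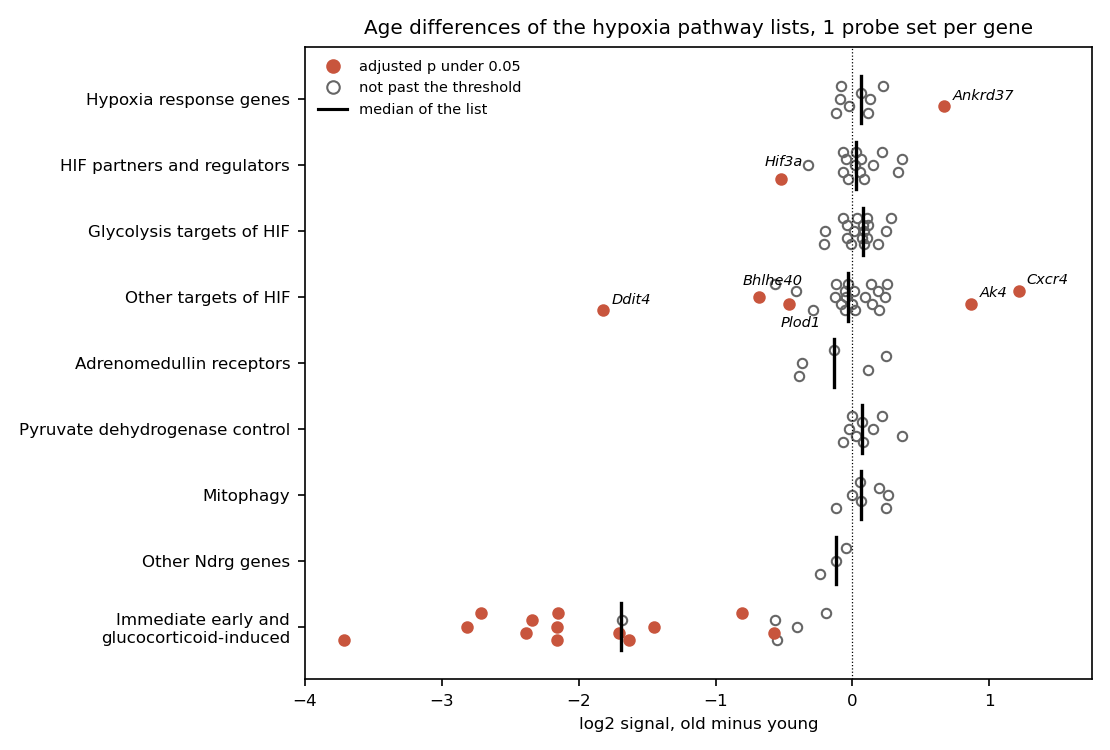
Each point is 1 gene at its brightest probe set, placed by its old minus young difference in log2 signal, and bars are list medians; filled red points had an adjusted p under 0.05. The hypoxia response genes and their pathway lists centre between -0.13 and 0.08, and the immediate early and glucocorticoid-induced list centres at -1.69.

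Partners of single members did not pass. Of 5 adrenomedullin receptor genes, 0 passed in limma, with 1 higher and 2 lower at an unadjusted p under 0.05. Ackr3, a scavenging receptor, read 12.60, 12.47 and 12.32 in young and 12.07, 12.03 and 12.13 in old tissue, and Calcrl, the signalling receptor of adrenomedullin, read 8.16, 7.99 and 8.0 in young and 7.78, 7.67 and 7.59 in old tissue. Both had groups that did not overlap, at -0.39 ± 0.09 and -0.37 ± 0.09, just outside the threshold (limma adjusted p = 0.0525 and 0.0536). They passed with cyclic loess scaling (0.0457 and 0.0497), with array weights (0.0470 and 0.0186) and among probe sets above the median signal (0.0355 and 0.0353), and Ackr3 also with a variance trend over intensity (0.0122). Neither passed with any array left out (limma adjusted p of 0.0691 to 0.156 and 0.0533 to 0.217) or with the replicate block (0.0769 and 0.0539). Of 14 alternatives, 10 left Ackr3 and 11 left Calcrl uncalled. The other probe sets of Calcrl, with young means of 3.65 and 3.31, differed by 0.11 and -0.04. Of 9 genes for pyruvate dehydrogenase and its control, 0 passed in limma, with 1 higher at an unadjusted p under 0.05. Pdk4, another pyruvate dehydrogenase kinase, had a difference of 0.36 ± 0.13 and Pdp1, an opposing phosphatase, 0.21 ± 0.16 (limma adjusted p = 0.182 and 0.550). Pdk4 passed with array weights and without young replicate 2 (limma adjusted p = 0.0361 and 0.0282). Of 7 measured mitophagy genes, 0 passed in limma and 2 were higher at an unadjusted p under 0.05. Those with the smallest p were Fundc1, a mitophagy receptor, at 0.20, and Bcl2, which binds Bnip3, at 0.24 (limma adjusted p = 0.184 and 0.223). The other probe sets of Fundc1 differed by 0.11 and 0.36, and those of Bcl2 by 0.06 to 0.54. Of 3 other Ndrg genes, 0 passed in limma and 1 was lower at an unadjusted p under 0.05. Ndrg3 differed by -0.23 and Ndrg4 by -0.12 (limma adjusted p = 0.242 and 0.798), while their other probe sets differed by 0.10 and -0.03. Among the other probe sets of the genes named from these lists, that of Ak4 alone passed.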

How the data were processed

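Messenger RNA of 6 samples, 3 young and 3 old, was measured on 1-colour Affymetrix 3′ arrays, 1 sample per array. Labelling primes from the poly(A) tail, per the labels' protocols, so signals come mainly from 3′ ends. The deposited table holds log2 signals of 45101 probe sets. Per the submitters' processing notes the tools were RMA and MAS5 and the program Affymetrix Expression Console; which made the table, and in what version, is not given in the sources used here. Array medians were 6.26 to 6.30, as scaling to a shared distribution gives, so a shift of most genes one way would be lost. The number of arrays limits the precision.

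Leaving out 64 control probe sets, 45037 entered a linear fit with limma 3.58.1 (R 4.3.3; lmFit, then eBayes), with age as the only term and Benjamini-Hochberg adjustment over all of them. Genes were named by GEO's annotation of the array, and probe sets with several symbols were not named. For lists and counts by gene, a gene was read at its brightest probe set. All members were named. From each pathway list, up to 4 called genes were named, the 2 highest and the 2 lowest, or, in a list with no call, the 2 of smallest p. Members, lists and tests were chosen with earlier results of these data known. Alternatives were other scalings, a filter on dim probe sets, another variance model, weights per array, a replicate block, a stricter threshold, averaging all probe sets of a gene and leaving out each array. Same-numbered arrays had correlations of their deviations from group means of 0.14, 0.08 and 0.01. Figures were drawn with matplotlib 3.10.9.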

Additional observations from a re-analysis of the deposited data

How the results depend on the processing

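No result turned direction past the threshold under any alternative. The hypoxia response probe sets called stayed at 3 under the other scalings, another variance model and array weights, and were 2 with probe sets above the median signal only, a filter that removes Ankrd37. At an adjusted p of 0.01 there were 0, and with 1 array left out 0 to 3. Genes called at the brightest probe set were 1 as reported, 0 above the median signal or at 0.01, 0 to 1 with 1 array left out, and 2, Ankrd37 and Egln3, when all probe sets of a gene were averaged. Over all probe sets, 2119 were called as reported, 4480 with array weights (2266 higher and 2214 lower), 436 at 0.01 and 515 to 3393 with 1 array left out. The replicate block gave 3 hypoxia response probe sets and 1932 of all probe sets, and it changed no call on a member. Same-numbered arrays had correlations of 0.14, 0.08 and 0.01, and arrays of unlike number had -0.11 to 0.07. These values cannot decide whether the numbers are pairs, and the main fit did not take them as pairs. Of the alternatives tried for single member probe sets, 291 kept the call or its absence and 12 lost it, at the stricter threshold or with 1 array left out. For other named genes 222 kept it, 21 lost it and 9 gained it, the gains being in Ackr3, Calcrl and Pdk4. The causes were not tested. Detection over background was not examined, which limits the dim probe sets.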
